A study of Mus musculus with 12 samples.

Results

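The comparison described here asks which transcripts respond differently to the neuropeptide CGRP (calcitonin gene-related peptide) in 2 kinds of MHC class II-positive (MHCII+) macrophages of the mouse synovium. Its measure is the subset-by-CGRP interaction, the log2 CGRP effect in CD11c cells minus the log2 CGRP effect in IAIE cells, so a positive value means a more positive response in CD11c cells. All 12 libraries of the series entered, assigned by their titles to 4 groups of 3, and 11927 of 26699 gene symbols had enough counts to be tested. Synovium from C57BL/6 mice with no engineered allele was kept as explants for 4 h with 100 nM CGRP (IAIE CGRP and CD11c CGRP) or without it (IAIE control and CD11c control, named Healthy in the titles). Cells were then released enzymatically and sorted as MHCII+CD11c- (IAIE) or MHCII+CD11c+ (CD11c). The peptide therefore met the intact tissue, with every other synovial cell present, before either subset was isolated, and the sources used here do not state how many mice stand behind a library, nor that replicates came from separate mice, so p-values measure only the spread between these samples.

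CGRP is released by pain-sensing nerve fibres and acts through a receptor built from the calcitonin receptor-like receptor (encoded by *Calcrl*) and its partner RAMP1 (*Ramp1*). The receptor couples chiefly to adenylate cyclase, so that cyclic AMP rises, protein kinase A is activated and the factor CREB binds cyclic AMP response elements (CRE) in DNA. In macrophages and dendritic cells cyclic AMP is known for restraining some inflammatory genes and inducing others. The AP-1 family of factors, made of JUN and FOS proteins, is also induced by many stimuli.

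Libraries held 2127191 to 5649698 counts in all. The detection floor was set at 3 counts, which corresponds to 0.534 to 1.34 CPM (counts scaled to library size with TMM factors). Levels are given in CPM, for single libraries in replicate order or as mean ± SD (n = 3). Effects are given as the log2 estimate of the edgeR quasi-likelihood fit ± SE, with Benjamini-Hochberg adjusted p. That fit reports no SE, so the SE here is the size of the estimate divided by the square root of its F statistic. Intervals were built from this SE. Both are approximate, and they are not measured errors for genes with a group near the floor. The sort held in the data. *Itgax*, which encodes CD11c, lay at 237 ± 29.0 CPM in CD11c control and 6.19 ± 4.76 CPM in IAIE control cells, and *H2-Ab1*, an MHC class II chain, was present in each library. The macrophage markers *Csf1r* (1439 ± 145 and 595 ± 67.3 CPM in IAIE and CD11c control cells) and *Adgre1* (463 ± 61.8 and 273 ± 6.91 CPM) were detected in both subsets. The Y-linked *Ddx3y* had 240 to 482 counts in each library and *Xist* at most 12, so each library was mainly from male cells.

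Few genes passed the threshold for a difference between the CGRP effects of the subsets in the edgeR fit without a block. A gene that did not pass is not thereby shown to respond alike. Of 11927 tested genes, 18 (0.151%) passed an adjusted p of 0.05 for the interaction, 16 (0.134%) with a more positive response in CD11c cells and 2 (0.0168%) with a more negative one. At an unadjusted p under 0.05 the counts were 579 genes (4.85%) and 470 genes (3.94%), respectively. The CGRP effect itself passed for 1298 genes (10.9%) in CD11c cells and for 1099 genes (9.21%) in IAIE cells. The count of 18 became 36 with the replicate number as a block, 52 with treatment and replicate number as an explant block, and 97 in DESeq2 without a block. All 18 genes were among those called in each of these fits. In limma-voom with quality weights 2 genes passed. Leaving out a single library gave 6 calls (CD11c control replicate 3 or IAIE CGRP replicate 2 omitted), 7 (CD11c control replicate 2 omitted) or, at most, 29 (CD11c CGRP replicate 2 omitted).

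**Figure D1:**
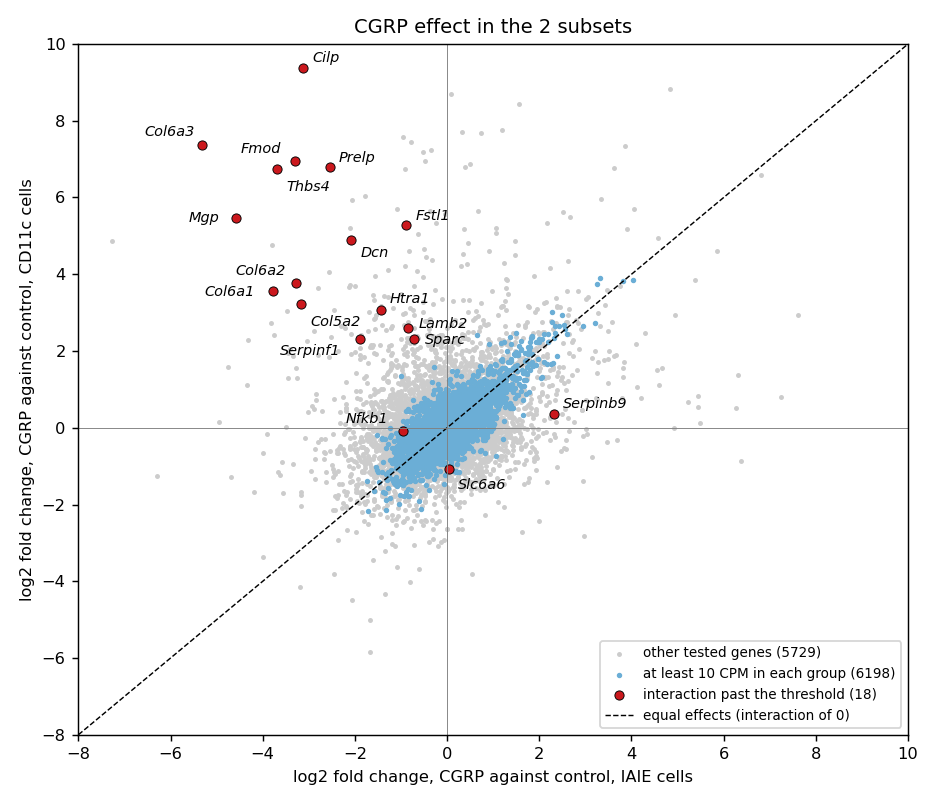
CGRP effect (log2 fold change against control) of each of 11927 tested genes in IAIE cells on the horizontal axis and in CD11c cells on the vertical axis, both from 3 libraries a group. Blue points are the 6198 genes averaging 10 CPM or more in each group, red points the 18 genes whose interaction passed the threshold, and the dashed line marks equal effects. Of the red points, 15 lie at the upper left, raised in CD11c cells and with an estimate below 0 in IAIE cells, while *Nfkb1*, *Serpinb9* and *Slc6a6* lie near an axis.

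The 18 genes fell into unlike groups. Of these, 15 encode matrix proteins or secreted proteins typical of connective tissue cells (*Thbs4*, *Col6a3*, *Col6a1*, *Col5a2*, *Dcn*, *Sparc*, *Col6a2*, *Fmod*, *Prelp*, *Serpinf1*, *Fstl1*, *Mgp*, *Lamb2*, *Htra1* and *Cilp*). The other 3 were *Slc6a6*, *Serpinb9* and *Nfkb1*. Only *Slc6a6*, *Nfkb1* and *Sparc* had a mean of at least 10 CPM in each of the 4 groups, a level held by 6198 of the tested genes. In 6 of the 18 at least 1 group lay at or under the floor in every library. The 2 CGRP effects had opposite signs in 16 of the 18, and passed the threshold in opposite directions in 8. The nearest genes on the other side of the threshold were *Hspg2* (perlecan, adjusted p = 0.053) and *Comp* (cartilage oligomeric matrix protein, 0.054), and the last inside were *Cilp* (0.0447) and *Htra1* (0.0417).

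*Slc6a6*, the taurine transporter (chromosome 6, 91684053 to 91759066, plus strand, GRCm38, the build called mm10 by the authors), was lowered by CGRP in CD11c cells. It held 689, 692 and 636 CPM in CD11c control libraries and 350.0, 338 and 274 CPM in CD11c CGRP libraries. In IAIE cells it held 529, 589 and 577 CPM without CGRP and 649, 580.0 and 524 CPM with it. The CD11c groups did not overlap and the IAIE groups did. The change was -1.07 ± 0.13 in CD11c cells (adjusted p = 1.16e-05), 0.477 times the control level, and 0.05 ± 0.12 in IAIE cells (adjusted p = 0.876). The interaction was -1.12 ± 0.18 (adjusted p = 0.00898), passed in each of the 12 fits without a library and passed in limma-voom (adjusted p = 0.00803). An exon of *Slc6a6* overlaps an annotated antisense gene. So do exons of *Prelp*, *Dock2*, *Fcgr2b*, *Rabgap1l*, *Zbtb20*, *Irf1*, *Ccnd2*, *Serpinb9b* and *Ramp3*, and *Zbtb20* also overlaps *Mir568* on its own strand. The strand setting of the counting is not given in the sources used here.

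*Nfkb1*, which encodes the NF-kB precursor p105 and its product p50 (chromosome 3, 135584655 to 135691547, minus strand), showed the reverse arrangement. IAIE libraries held 852, 887 and 899 CPM without CGRP and 450.5, 482 and 427 CPM with it. CD11c libraries held 1099, 1067 and 1112 CPM without and 914, 1140.0 and 1065 CPM with CGRP. Its level thus fell to 0.515 times control in IAIE cells (-0.96 ± 0.11, adjusted p = 1.78e-05), where the groups were well apart, and differed by -0.07 ± 0.11 in CD11c cells, where they overlapped (adjusted p = 0.782). The interaction was 0.88 ± 0.16 (adjusted p = 0.018). It passed in limma-voom (0.0234), but in 5 of the 12 fits without a library, with adjusted p from 0.0138 to 0.108. It did not pass without IAIE control replicate 2, without any of CD11c control replicates 1, 2 and 3, without IAIE CGRP replicate 2 or 3, or without CD11c CGRP replicate 3.

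*Serpinb9*, an intracellular inhibitor of the cytotoxic protease granzyme B (chromosome 13, 33003250 to 33017957, plus strand), rose in IAIE cells from a low level. It held 3.72, 6.88 and 7.16 CPM in IAIE control libraries and 26.7, 36.7 and 24.5 CPM in IAIE CGRP libraries. In CD11c cells it stood at 80.4, 113 and 107 CPM before and 112, 114 and 162 CPM after CGRP, so each CD11c library lay above each IAIE library. The change was 2.32 ± 0.28 in IAIE cells (adjusted p = 2.01e-05) and 0.36 ± 0.20 in CD11c cells (adjusted p = 0.315). The interaction was -1.95 ± 0.34 (adjusted p = 0.0177) and passed in 8 of the 12 fits without a library, not without IAIE control replicate 1, CD11c control replicate 2 or 3, or IAIE CGRP replicate 2 (highest adjusted p 0.075), nor in limma-voom (0.239). The neighbouring paralog *Serpinb9b* had 0, 1.15 and 0.448 CPM in IAIE control and 8.73, 10.4 and 11.1 CPM in IAIE CGRP libraries, against 22.03, 27.4 and 48.1 CPM rising to 41.0, 88.1 and 78.5 CPM in CD11c cells. Its interaction of -3.04 ± 0.74 had an adjusted p of 0.13, which was 0.0445 under the explant block and 0.0459 under the replicate block. The annotated transcripts of these 2 genes share no stretch of 100 bases. Of 8 tested members of the clade B serpin family, *Serpinb9* among them, 1 had a positive interaction estimate (6114 of 11927 over all tested genes) and 7 a negative one. The median was -0.31 against 0.01 over all tested genes. The 3 members with at least 10 CPM in each group, such as *Serpinb6a* (0.22 ± 0.19) and *Serpinb2* (-0.48 ± 0.44), had a median of -0.05 and did not pass.

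**Figure D2:**
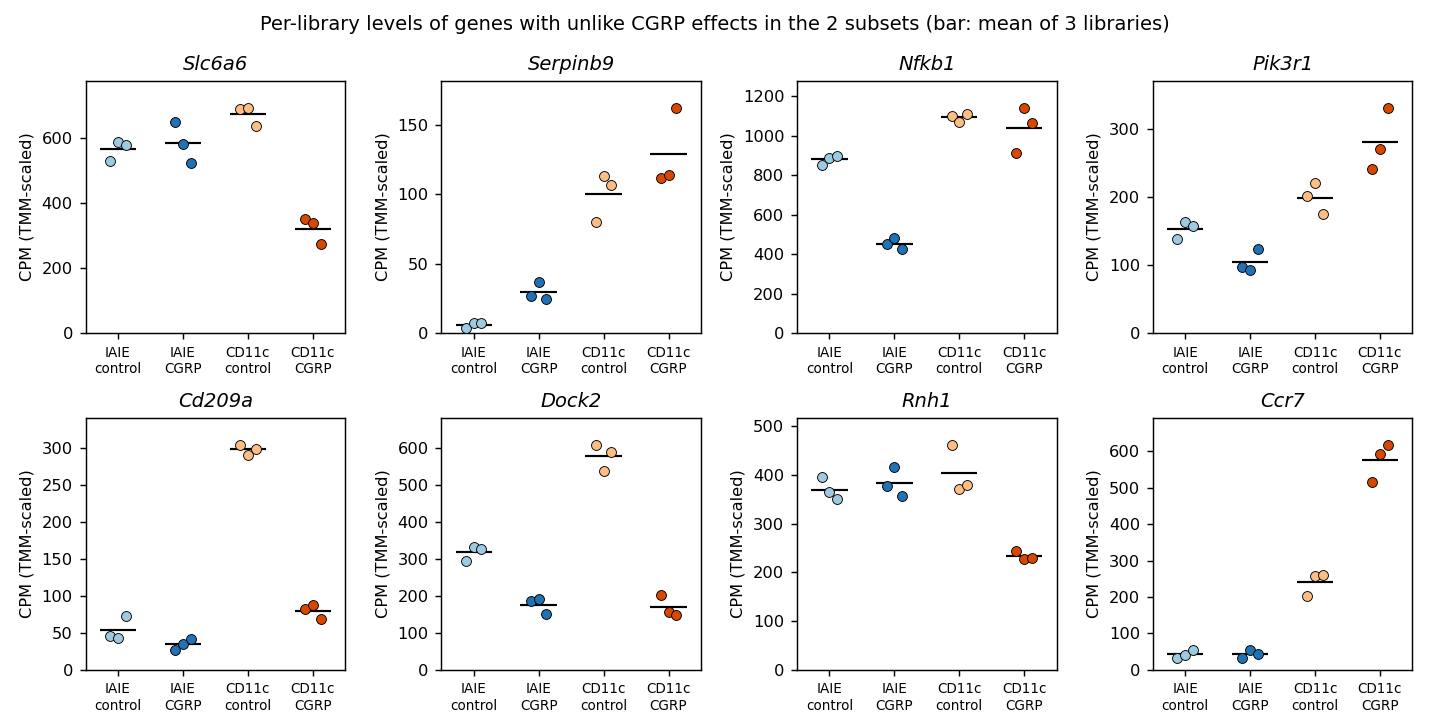
TMM-scaled CPM of 8 genes in each of the 12 libraries, by group, with a bar at the mean of 3 libraries and each vertical axis starting at 0. *Slc6a6* and *Rnh1* are low in CD11c CGRP libraries alone, *Nfkb1* in IAIE CGRP libraries alone, *Serpinb9* rises from near 0 in IAIE cells, and *Pik3r1* moves in opposite directions in the 2 subsets.

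Beyond these, the genes expressed well above the floor were ranked by interaction p, 10 in each direction, which leaves 17 genes past the called ones. They are described by their levels, since none passed the adjusted threshold in the edgeR fit without a block (adjusted p from 0.0544 to 0.13). All 17 passed in DESeq2, the study's method, also fitted without a block (adjusted p from 0.00122 to 0.0206). None of the 17 passed in limma-voom (0.0889 to 0.335). Opposite signs of the 2 effects were seen in 12 of the 20. *Pik3r1*, the regulatory subunit of phosphoinositide 3-kinase, was the only gene with at least 10 CPM in each group whose CGRP effect passed in both subsets with opposite signs. It went from 139, 163 and 157 CPM to 96.6, 93.3 and 124 CPM in IAIE cells and from 202, 220.0 and 175 CPM to 241, 271 and 331 CPM in CD11c cells, with no overlap in either subset. Its interaction was 1.04 ± 0.22 (adjusted p = 0.0545, 0.00753 with the explant block and 0.0402 with the replicate block).

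Of the 10 more negative genes, *Cd209a*, *Dock2* and *Arap2* fell in CD11c cells with CGRP. *Cd209a*, a C-type lectin of monocyte-derived dendritic cells, held 304, 289.9 and 299 CPM in CD11c control and 82.1, 87.4 and 68.3 CPM in CD11c CGRP libraries. In IAIE cells it held 45.6, 43.0 and 72.1 CPM and then 27.3, 34.5 and 41.7 CPM. The fall was -1.91 ± 0.18 in CD11c cells (adjusted p = 2.26e-06), while the -0.61 ± 0.20 of IAIE cells did not pass (0.0578), and the interaction was -1.30 ± 0.27 (adjusted p = 0.0544, 0.0282 with the explant block and 0.0415 with the replicate block). *Dock2*, an activator of the GTPase RAC in moving leukocytes, fell in both subsets, from 609.9, 539 and 589.6 CPM to 203, 156 and 148 CPM in CD11c cells and from 296, 331 and 328 CPM to 186, 191 and 152 CPM in IAIE cells. The CD11c estimate was the more negative (interaction -0.92 ± 0.19, adjusted p = 0.058, 0.0129 with the explant block and 0.0415 with the replicate block), and the subsets, which differed by 0.86 ± 0.14 (CD11c minus IAIE) in control libraries, differed by -0.06 ± 0.14 with CGRP. *Arap2*, a regulator of small GTPases at focal adhesions, went from 110.1 ± 27.5 to 25.4 ± 4.24 CPM in CD11c cells and from 25.7 ± 3.90 to 17.1 ± 6.13 CPM in IAIE cells (interaction -1.55 ± 0.36, adjusted p = 0.111, 0.0271 with the explant block and 0.0302 with the replicate block).

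*Rnh1*, *Zbtb20* and *Camk1d* fell in CD11c cells too, with IAIE estimates that did not pass. *Rnh1*, the cytosolic ribonuclease inhibitor, held 462, 371 and 379 CPM in CD11c control and 245, 228 and 230.2 CPM in CD11c CGRP libraries. Its IAIE values of 395, 365 and 350.1 CPM without and 377, 416 and 358 CPM with CGRP overlapped. The interaction was -0.83 ± 0.17 (adjusted p = 0.0544, 0.0154 with the explant block and 0.0356 with the replicate block). The zinc finger repressor *Zbtb20* (40.7 ± 12.1 to 18.5 ± 1.25 CPM) and the kinase *Camk1d* (114 ± 8.53 to 47.4 ± 4.64 CPM) also fell in CD11c cells, with interactions of -1.40 ± 0.32 and -0.86 ± 0.20 (adjusted p = 0.098 and 0.11). Neither interaction passed with the explant block (0.0769 and 0.0726) or the replicate block (0.0946 and 0.083). *Ctss*, the protease cathepsin S that trims the MHC class II invariant chain, differed from these in having estimates of like size and opposite sign, -0.34 ± 0.11 in CD11c and 0.31 ± 0.11 in IAIE cells, of which neither passed, and an interaction of -0.65 ± 0.16 (adjusted p = 0.13, 0.0433 with the explant block and 0.0703 with the replicate block).

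In the remaining 2, the level rose in IAIE cells, whose control libraries lay below those of CD11c cells. *Tspan3*, a tetraspanin, rose from 128, 173 and 154 CPM to 285, 328 and 336 CPM in IAIE cells, while CD11c cells held 481, 497 and 442 CPM before and 539, 583 and 565 CPM after CGRP. The interaction was -0.81 ± 0.18 (adjusted p = 0.0772, 0.0255 with the explant block and 0.0404 with the replicate block). *Cd200r1*, an inhibitory receptor of myeloid cells, rose from 28.9, 29.8 and 26.9 CPM to 48.7, 65.8 and 52.6 CPM in IAIE cells, against 72.9 ± 10.4 and 68.7 ± 5.46 CPM in CD11c cells (interaction -1.05 ± 0.24, adjusted p = 0.103, 0.0566 with the explant block and 0.0594 with the replicate block). The T cell chemokine *Ccl22*, below 10 CPM in IAIE control, rose in both subsets, from 1.24, 0.860 and 8.51 CPM to 26.2, 32.3 and 67.1 CPM in IAIE cells and from 192, 231 and 274 CPM to 616, 661 and 770.2 CPM in CD11c cells. Its interaction of -2.26 ± 0.59 did not pass (adjusted p = 0.152), nor with the explant block (0.0509), but did with the replicate block (0.0473), and each IAIE CGRP library lay below each CD11c control library. *Adam8*, a membrane protease of activated leukocytes, rose in IAIE cells (-0.85 ± 0.22, adjusted p = 0.149), and the checkpoint ligand *Cd274* rose in both subsets (-0.74 ± 0.22, adjusted p = 0.239). Their interactions passed with the explant block (0.0224 and 0.0485) and not with the replicate block (0.0768 and 0.147). *Pdpn*, a mucin-like membrane protein also listed among fibroblast markers, rose in both subsets, with the higher estimate in IAIE cells (interaction -0.84 ± 0.21, adjusted p = 0.149, 0.0195 with the explant block and 0.0483 with the replicate block).

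**Figure D3:**
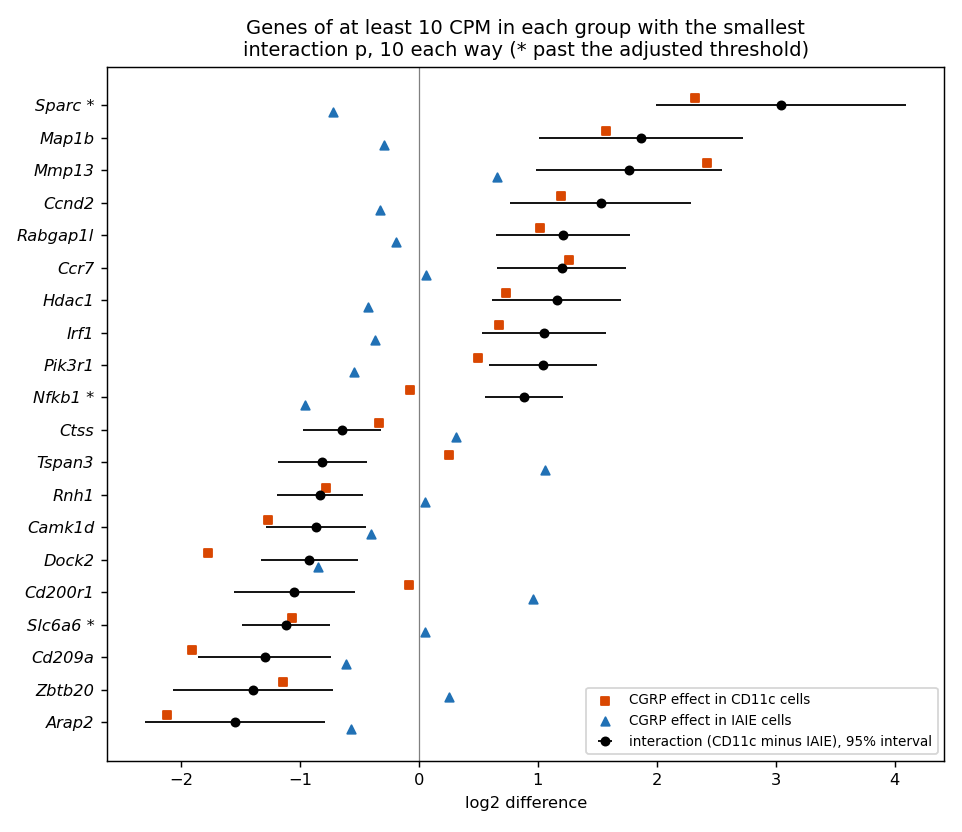
The 20 genes of at least 10 CPM in each group with the smallest interaction p, 10 in each direction, on a log2 scale. Black points with bars are the interaction and its 95% interval, squares the CGRP effect in CD11c cells and triangles that in IAIE cells, and asterisks mark the 3 genes past the adjusted threshold. Squares lie farther from 0 than triangles for *Cd209a*, *Arap2* and *Mmp13*, whereas triangles lie farther for *Nfkb1*, *Tspan3* and *Cd200r1*.

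The 10 more positive genes were mostly raised by CGRP in CD11c cells. *Ccr7*, the chemokine receptor that leads dendritic cells to lymph nodes, went from 202, 259 and 260.0 CPM to 515, 594 and 618 CPM in CD11c cells. In IAIE cells it held 33.2, 39.9 and 53.7 CPM without and 33.1, 53.2 and 44.3 CPM with CGRP. The CD11c rise was 2.39-fold (1.26 ± 0.17, adjusted p = 5.32e-05), and the interaction 1.199 ± 0.26 had an adjusted p of 0.0675, or 0.00579 under the explant block and 0.00917 under the replicate block. *Ccnd2*, the cell cycle protein cyclin D2, rose from 91.8 ± 16.3 to 212 ± 60.0 CPM in CD11c cells and stood at 21.4 ± 6.98 and 17.4 ± 5.28 CPM in IAIE cells (interaction 1.53 ± 0.36, adjusted p = 0.121, 0.0469 with the explant block and 0.084 with the replicate block). *Rabgap1l*, a RAB GTPase-activating protein, rose from 80.4, 92.8 and 111 CPM to 131, 242 and 206 CPM in CD11c cells (interaction 1.21 ± 0.27, adjusted p = 0.0772, 0.0433 with the explant block and 0.0459 with the replicate block). *Map1b*, a microtubule-associated protein (interaction 1.86 ± 0.41), the histone deacetylase *Hdac1* (1.16 ± 0.26) and the interferon regulatory factor *Irf1* (1.05 ± 0.25) rose in CD11c cells and had negative estimates, not past the threshold, in IAIE cells (interaction adjusted p from 0.0772 to 0.12). None of their interactions passed with either block (0.0509 to 0.114).

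*Mmp13*, collagenase 3, held 15.5, 14.5 and 18.9 CPM in CD11c control and 86.7, 80.0 and 96.1 CPM in CD11c CGRP libraries, a 5.35-fold rise (2.42 ± 0.27, adjusted p = 6.48e-06). Its IAIE libraries held 36.0, 21.5 and 13.4 CPM and then 31.8, 47.1 and 34.3 CPM, which overlapped (0.65 ± 0.26, adjusted p = 0.144). The interaction was 1.77 ± 0.37 (adjusted p = 0.058, 0.0575 with the explant block and 0.0675 with the replicate block). *Sparc*, a matricellular protein also listed among markers of synovial lining macrophages, held 19.99, 23.1 and 13.9 CPM in CD11c control and 113, 98.3 and 73.5 CPM in CD11c CGRP libraries. In IAIE cells it ranged from 47.8 to 189 CPM without and from 53.2 to 94.8 CPM with CGRP. The interaction was 3.04 ± 0.50 (adjusted p = 0.0143). It passed in 10 of the 12 fits without a library, not without CD11c control replicate 3 or IAIE CGRP replicate 2 (highest adjusted p 0.0923), nor in limma-voom (0.0567).

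To show the regulatory sequence upstream of genes in these groups, promoter windows of 300 bases (250 before the annotated start and 50 from it) were taken from RefSeq on GRCm38.p6, which matched 26 of the 35 genes named so far by the interaction ranking or call. They were searched on both strands for the full CRE (TGACGTCA), its shorter core (TGACG, which lies within the full CRE) and the AP-1 site (TGANTCA). No window of the 26 genes held the full CRE, which 1.79% of all 32851 windows hold. The core occurred in 4 of the 26 genes (15.4%, against 23% of all 27025 genes with a window) and the AP-1 site in 4 (15.4% against 8.97%). A match is a description of these letters and not evidence of binding. The windows below are shown since each holds a match in a gene described here, on the gene's strand, with the match in capitals: the AP-1 site 35 bases before the start in *Mmp13* (chr9:7272264-7272563, plus strand), the CRE core, read on the opposite strand, 35 bases before the second annotated start of *Pik3r1* (chr13:101692581-101692880, minus strand), and the AP-1 site 90 bases before the start in *Col6a1* (chr10:76725995-76726294, minus strand), a matrix gene described next.
Mmp13: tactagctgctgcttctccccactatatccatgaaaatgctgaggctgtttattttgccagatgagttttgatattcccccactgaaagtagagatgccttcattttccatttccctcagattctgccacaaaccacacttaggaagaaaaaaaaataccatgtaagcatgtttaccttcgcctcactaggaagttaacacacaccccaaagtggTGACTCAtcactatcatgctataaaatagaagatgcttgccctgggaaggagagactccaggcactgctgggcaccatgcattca
Pik3r1: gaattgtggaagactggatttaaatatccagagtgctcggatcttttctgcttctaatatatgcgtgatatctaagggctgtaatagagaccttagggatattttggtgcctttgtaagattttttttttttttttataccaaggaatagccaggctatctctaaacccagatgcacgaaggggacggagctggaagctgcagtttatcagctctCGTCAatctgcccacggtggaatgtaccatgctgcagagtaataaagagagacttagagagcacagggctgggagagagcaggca
Col6a1: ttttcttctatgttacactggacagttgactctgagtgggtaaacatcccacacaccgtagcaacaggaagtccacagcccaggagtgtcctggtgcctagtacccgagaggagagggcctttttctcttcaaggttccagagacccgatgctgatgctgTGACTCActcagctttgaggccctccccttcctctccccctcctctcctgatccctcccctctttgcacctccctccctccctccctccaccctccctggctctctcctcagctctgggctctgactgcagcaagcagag

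The 15 matrix and stromal genes held interactions of 3.04 ± 0.50 to 12.68 ± 1.61 log2 units and, apart from *Sparc*, lay below 10 CPM in at least 1 group. *Thbs4*, thrombospondin 4 of tendon and cartilage (chromosome 13, 92751590 to 92794818, minus strand), had 7.75, 9.17 and 11.2 CPM in IAIE control and 1.32, 0.486 and 0.377 CPM in IAIE CGRP libraries. In CD11c cells it had 1.22, 0 and 0 CPM, at or under the floor in all 3 control libraries, and 24.6, 20.8 and 52.8 CPM with CGRP. It was thus lowered to 0.0775 times control in IAIE cells (-3.69 ± 0.65, adjusted p = 0.00094) and in CD11c cells CGRP raised it by a factor of at least 38.2 over the group floor. Its fitted interaction was 10.44 ± 0.98 (adjusted p = 2.74e-05) and passed in each of the 12 fits without a library, although the adjusted p in limma-voom was 0.0512.

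The 3 chains of collagen VI, a beaded-filament collagen that surrounds cells, shared this crossing. *Col6a3* had 5.58, 17.5 and 142 CPM in IAIE control, 2.38, 1.22 and 0.566 CPM in IAIE CGRP, 0.408, 0 and 0.644 CPM in CD11c control and 31.4, 128 and 30.2 CPM in CD11c CGRP libraries. *Col6a1* had 4.03, 27.8 and 64.0 CPM in IAIE control, 1.85, 2.43 and 2.45 CPM in IAIE CGRP, 0.408, 2.10 and 3.004 CPM in CD11c control and 23.6, 42.1 and 7.65 CPM in CD11c CGRP libraries. For both genes the groups did not overlap in either subset. Interactions were 12.68 ± 1.61 for *Col6a3*, 7.34 ± 1.09 for *Col6a1* and 7.05 ± 1.202 for *Col6a2* (adjusted p = 0.00133, 0.00788 and 0.0149), and *Col5a2* of the fibrillar collagen V reached 6.38 ± 0.98 (adjusted p = 0.00898). *Col6a3*, *Col6a1* and *Col5a2* passed in each of the 12 fits without a library. *Col6a2* did not pass without CD11c control replicate 3 or IAIE CGRP replicate 2. None of the 4 passed in limma-voom (adjusted p from 0.156 to 0.353).

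Small leucine-rich proteoglycans, which bind collagen fibrils, had the same pair of signs. *Dcn*, decorin, had 20.5, 42.4 and 39.4 CPM in IAIE control and 17.7, 2.43 and 4.53 CPM in IAIE CGRP libraries, and went from 2.45, 1.40 and 1.93 CPM to 57.3, 104 and 6.41 CPM in CD11c cells. CD11c groups did not overlap, with a rise of 4.88 ± 0.84 (adjusted p = 0.000577), while the IAIE change of -2.08 ± 0.69 did not pass (0.0697). Interactions were 6.96 ± 1.10 for *Dcn*, 10.26 ± 1.76 for fibromodulin (*Fmod*) and 9.34 ± 1.605 for *Prelp* (adjusted p = 0.00898, 0.0149 and 0.0149). *Cilp*, cartilage intermediate layer protein, and *Mgp*, the calcification inhibitor matrix Gla protein, were the most uneven. *Cilp* held 60.6, 176 and 2.31 CPM in CD11c CGRP libraries, at least 93.0-fold above a control group at the floor, and *Mgp* 6.71, 69.3 and 3.74 CPM. *Cilp* passed in 3 of the 12 fits without a library, those without a CD11c CGRP library. *Mgp* passed in 5, not without IAIE control replicate 2, CD11c control replicate 2 or 3, any IAIE CGRP library or CD11c CGRP replicate 2. *Serpinf1*, *Fstl1*, *Lamb2* and *Htra1*, which encode secreted or basement membrane proteins, had interactions of 4.21 ± 0.73, 6.15 ± 1.06, 3.46 ± 0.64 and 4.49 ± 0.87. *Dcn* did not pass without CD11c control replicate 2 or 3. *Fmod* and *Prelp* passed in 8 of the 12 fits, not without IAIE control replicate 1, CD11c control replicate 2 or 3, or IAIE CGRP replicate 2. *Serpinf1* and *Fstl1* both failed without IAIE control replicate 2, CD11c control replicate 2 or IAIE CGRP replicate 2, and *Fstl1* also without CD11c control replicate 3. *Lamb2* passed in 6 fits and *Htra1* in 3, with CD11c control replicates 2 and 3 and IAIE CGRP replicates 2 and 3 among those whose removal ended the call of both.

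Summed over the 15 genes, the level was 188, 429 and 525 CPM in IAIE control, 162, 87.7 and 89.2 CPM in IAIE CGRP, 40.4, 38.4 and 27.5 CPM in CD11c control and 504, 788 and 278 CPM in CD11c CGRP libraries. The summed level fell below each control library in IAIE cells with CGRP and rose above each in CD11c cells. These 15 genes were chosen by their interaction in the same libraries, so the movement of their sum is a description and no separate support. Of the marker lists of connective tissue cells, the chondrocyte sum followed it in both subsets, whereas the mural sum was above control in CD11c CGRP libraries and overlapped control in IAIE cells. The 8 chondrocyte markers, of which *Cilp* is also among the 15, summed to 9.46 to 24.6 CPM in IAIE control, 1.46 to 5.29 CPM in IAIE CGRP, 2.10 to 6.87 CPM in CD11c control and 11.7 to 592 CPM in CD11c CGRP libraries, the last with 4 to 7 of the 8 above the floor. CD11c CGRP replicate 2, the highest, also held 787 counts of *Comp*, 641 of *Chad* and 112 of the cartilage proteoglycan *Acan*. The 13 mural and smooth muscle markers summed to 28.1 to 37.1 CPM in CD11c control and 58.9 to 396 CPM in CD11c CGRP libraries, against 57.0 to 85.5 CPM and 68.1 to 176 CPM in IAIE cells. Of this list *Cspg4* alone held 20.1 to 30.6 CPM in CD11c control, 37.7 to 58.7 CPM in CD11c CGRP and 47.9 to 65.5 CPM in IAIE control libraries. The lowest CD11c CGRP sum, that of replicate 2, was mostly *Cspg4* (205 counts, 50.7 CPM), with 0 counts of *Acta2*, *Myh11* and *Myl9*. A rise of the other mural markers in that library is thus not shown. Smooth muscle myosin *Myh11* had 1070, 0 and 407 counts in the 3 CD11c CGRP libraries, in which *Cilp* had 316, 711 and 13. Cartilage and smooth muscle markers were thus highest in different CD11c CGRP libraries. The fibroblast surface marker *Pdgfra* had 12, 33 and 4 counts in IAIE control, 17, 0 and 4 in IAIE CGRP, 0, 1 and 0 in CD11c control and 9, 10 and 7 in CD11c CGRP libraries, and the lubricin gene *Prg4* 5416 counts in IAIE CGRP replicate 1 alone, against at most 794 elsewhere. The 15 fibroblast markers summed to 536 to 1923 CPM in IAIE control, 696 to 2408 CPM in IAIE CGRP, 398 to 476 CPM in CD11c control and 648 to 939 CPM in CD11c CGRP libraries. *Dcn* is also among the 15 matrix and stromal genes. Much of the fibroblast sum came from *Pdpn*, at 171 to 253 CPM in CD11c control, 317 to 409 CPM in CD11c CGRP, 162 to 190 CPM in IAIE control and 517 to 633 CPM in IAIE CGRP libraries, from the actin-severing protein *Gsn* (184 to 209 CPM in CD11c control), and from *Prg4* (1430 CPM in IAIE CGRP replicate 1). Without these 3, left out after their values were seen, the other 12 summed to 137 to 1400 CPM in IAIE control, 55.6 to 150 CPM in IAIE CGRP, 29.0 to 37.3 CPM in CD11c control and 63.0 to 299 CPM in CD11c CGRP libraries. In both sums the CD11c groups did not overlap and the IAIE groups did. The IAIE median was 719 CPM in control and 879 CPM in CGRP libraries for all 15 markers, and 316 and 108 CPM for the 12. The 13 endothelial markers summed to 23.2 to 30.9, 28.1 to 48.4, 46.3 to 328 and 27.97 to 127 CPM in IAIE control, IAIE CGRP, CD11c control and CD11c CGRP libraries. In all 3 CD11c control libraries *Mfap5*, *Hapln1*, *Tagln*, *Des*, *Kcnj8*, *Emcn* and *Cldn5* had no counts, as *Hapln1*, *Cnmd*, *Chad* and *Plvap* had none in IAIE CGRP libraries. The part of such cells in the matrix interactions was not tested, and in sorted bulk RNA a change in the number of contributing cells cannot be told apart from a change of RNA per cell. Without IAIE control replicate 2, the highest for *Col1a1* and *Col3a1*, and CD11c CGRP replicate 2 together, 21 genes passed, 13 of them among the 18.

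**Figure D4:**
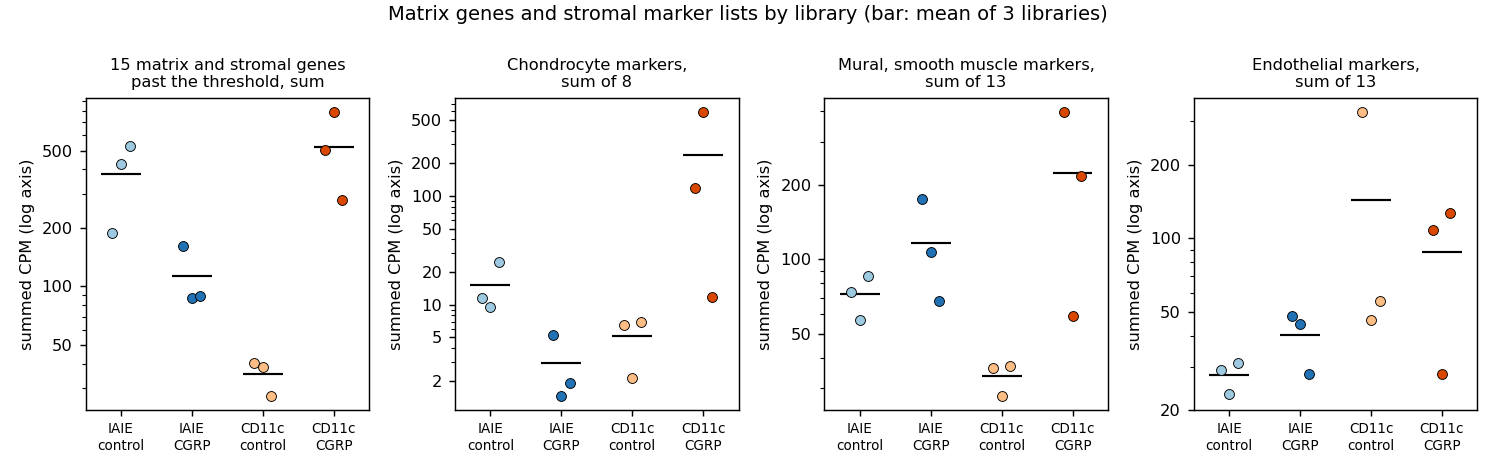
Summed TMM-scaled CPM, on log axes, of the 15 matrix and stromal genes past the interaction threshold and of 3 marker lists in each of the 12 libraries, with bars at group means. The 15 genes were chosen by their interaction in these libraries. The matrix sum and the chondrocyte sum are lower with CGRP in IAIE cells and higher with CGRP in CD11c cells (278 to 788 CPM and 11.7 to 592 CPM), whereas the endothelial sum is highest in a CD11c control library.

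None of the 4 tested genes of the CGRP receptor and its related subunits had an interaction past the threshold, or an unadjusted p under 0.05. *Calcrl* lay between 26.2 and 49.6 CPM in each library, with overlapping groups and an interaction of 0.20 ± 0.31 (95% interval -0.46 to 0.86, adjusted p = 0.921). *Ramp1* held 31.0, 15.4 and 24.5 CPM in CD11c control and 9.40, 3.71 and 5.69 CPM in CD11c CGRP libraries, and 7.75, 7.17 and 4.92 CPM and then 2.12, 3.64 and 2.83 CPM in IAIE cells. The fall passed in CD11c cells (-1.89 ± 0.39, adjusted p = 0.00307) and not in IAIE cells (-1.21 ± 0.44, 0.103), but their difference of -0.68 ± 0.60 (interval -1.93 to 0.57) was not resolved (adjusted p = 0.831). *Ramp3*, the partner that makes an adrenomedullin receptor, rose in both subsets (interaction -0.42 ± 0.21, adjusted p = 0.578), and *Ramp2* was too low to test.

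Among Fc gamma receptors, which bind IgG, *Fcgr3* rose from 187 ± 21.5 to 495 ± 36.9 CPM in CD11c cells and from 244 ± 26.9 to 390.5 ± 52.6 CPM in IAIE cells. The inhibitory *Fcgr2b* rose from 204, 206 and 167 CPM to 484, 402 and 451 CPM in CD11c cells and from 255, 230.5 and 218 CPM to 344, 296 and 365 CPM in IAIE cells. Their interactions of 0.73 ± 0.19 and 0.70 ± 0.19 had adjusted p of 0.159 and 0.163. These were 0.0644 and 0.0489 with the explant block, and 0.147 and 0.129 with the replicate block. Both interactions passed in DESeq2 (0.0393 and 0.0408) and neither in limma-voom (0.173 and 0.168). Of 5843 different 100-base windows in the annotated transcripts of *Fcgr2b*, taken at each base and so overlapping, 44 (0.753%) also occur in those of *Fcgr3*. Reads in these windows could be split by the counting. *Fcgr1* (0.40 ± 0.34), *Fcgr4* (-0.56 ± 0.80) and *Tlr4* (0.32 ± 0.26) did not pass in any of these fits.

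*Arg1*, *Cxcl5* and *Nos2* rose more than 10-fold in both subsets, with wide intervals on the difference. *Arg1*, which encodes arginase, rose 14.5-fold in CD11c and 16.5-fold in IAIE cells, with an interaction of -0.18 ± 1.07 (interval -2.42 to 2.05). The neutrophil chemokine *Cxcl5* rose 12.04-fold and 11-fold (0.13 ± 0.57), and *Nos2*, inducible nitric oxide synthase, 36.3-fold and 14.9-fold (1.29 ± 1.06, interval -0.94 to 3.52). *Il15* (-0.21 ± 0.54), *Cxcl10* (0.14 ± 0.46) and *Ccl3* (0.51 ± 0.28) also rose in both. *Cxcl12*, a stromal chemokine at or under the floor in CD11c control libraries, had an interaction of 3.91 ± 1.01 (adjusted p = 0.149), and the CD11c marker *Itgax* one of -0.89 ± 0.58 (adjusted p = 0.739). *H2-Ab1* fell by a like amount in both subsets, -0.66 ± 0.11 and -0.74 ± 0.11 (interaction 0.08 ± 0.16, interval -0.26 to 0.41).

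By gene list, most called genes were matrix genes. The 3 matrix lists held 42 tested members, of which 10 passed (0.151% of all tested genes did), 29 had an unadjusted p under 0.05 with a positive sign (4.85% of all) and none with a negative one (3.94% of all), with a median interaction of 4.19, or 3.49 with the 11 members that had a group at the floor set to their bound. The other 34 pathway lists held 468 tested members that are on none of the matrix lists, of which 3 passed and 51 and 30 had an unadjusted p under 0.05 with a positive and a negative sign, with a median of 0.02, against 0.01 over all tested genes. *Sparc*, counted with the matrix lists, is also on the list of synovial lining macrophage markers. Among 18 collagen chains, 4 passed and the median was 4.30, and among 20 matricellular and cartilage genes 3 passed with a median of 2.77. At least 10 CPM in each group was held by 2 of the 18 collagen chains (median interaction 1.43), 0 of 4 small leucine-rich proteoglycans and 4 of the 20 matricellular and cartilage genes (median 0.40). Of all tested genes, 6198 of 11927 held it. A member below that level could be tested through the group where it was high, which bears on the sign of its interaction. The shares over all tested genes are therefore not a like comparison. The lists were chosen with earlier results of these samples known, so these counts are a description.

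**Figure D5:**
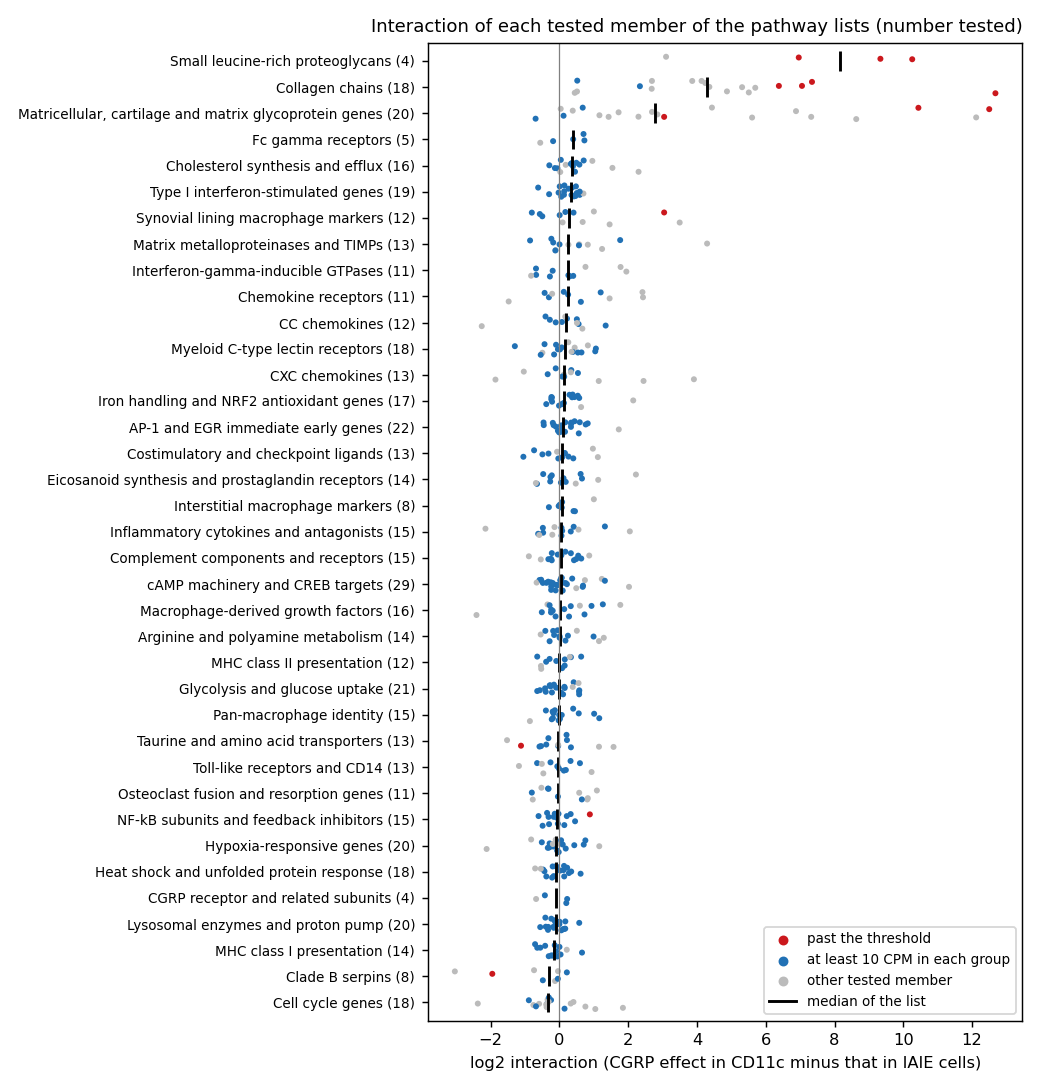
The log2 interaction of each tested member of the 37 pathway lists, with the number tested in brackets and a black bar at each list's median. Red points passed the threshold, blue points are genes of at least 10 CPM in each group and grey points the rest. The 3 matrix lists at the top have medians of 8.15, 4.30 and 2.77, and the medians of the other lists lie between -0.33 and 0.40.

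Interferon, glycolysis and hypoxia genes rose with CGRP in both subsets. Of 19 type I interferon-stimulated genes, 19 rose in CD11c and 18 in IAIE cells, where 6.29% and 5.32% of all tested genes rose. Their median effects were 2.23 and 2.06, and 16 of the 19 had a positive interaction (6114 of 11927 over all tested genes) with a median of 0.35, none at an unadjusted p under 0.05. Of 21 glycolysis genes, 14 rose in CD11c and 15 in IAIE cells, with median effects of 1.092 and 1.117, and of 20 hypoxia-responsive genes 14 and 13 rose, with medians of 1.005 and 1.046. Within these lists single members differed at an unadjusted p under 0.05, such as the hexokinase *Hk3* (-0.57 ± 0.18) and the growth factor *Vegfa* (-0.51 ± 0.19), more positive in IAIE cells, and the glycolytic regulator *Pfkfb3* (0.57 ± 0.20), more positive in CD11c cells. None of the 3 passed the adjusted threshold (0.304 to 0.397). MHC class II genes had medians of -0.88 and -0.79, with 8 and 7 of 12 lowered, against 4.59% and 3.89% of all tested genes. Of 17 tested dendritic cell markers, 2 had a positive and 2 a negative interaction at an unadjusted p under 0.05 (4.85% and 3.94% of all tested genes), with a median of 0.10.

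No cholesterol gene passed for the interaction. Of 16 tested, 13 had a positive estimate (6114 of 11927 over all tested genes), 5 of them with an unadjusted p under 0.05 (4.85% of all), and the median was 0.38 against 0.01. CGRP raised 5 of the 16 in CD11c cells (6.29% of all tested genes) and none in IAIE cells (5.32% of all), where it lowered 1 (3.89% of all). The difference between these counts was not tested. *Idi1*, an isomerase of the sterol pathway named after its values were seen, held 14.7, 20.8 and 16.5 CPM in CD11c control and 38.5, 49.3 and 71.9 CPM in CD11c CGRP libraries, and 6.51, 6.31 and 4.03 CPM and then 2.91, 5.34 and 2.45 CPM in IAIE cells (interaction 2.30 ± 0.48, adjusted p = 0.0574, 0.0509 with the explant block and 0.0465 with the replicate block). The sterol demethylase *Cyp51* (0.96 ± 0.35), the ubiquitin ligase *Mylip* (0.58 ± 0.27) and the transcription factor *Srebf2* (0.39 ± 0.18) had adjusted p from 0.39 to 0.564.

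Signalling lists were mixed. Over all tested genes, 4.85% had an unadjusted p under 0.05 with a positive sign and 3.94% with a negative one. Whether the counts below differ from these shares was not tested. Of 15 NF-kB subunits and feedback genes *Nfkb1* passed, and 4 had an unadjusted p under 0.05, *Nfkb1* (0.88) and *Nfkb2* (0.45 ± 0.19) with a positive and *Relb* (-0.49 ± 0.22) and *Traf1* (-0.61 ± 0.22) with a negative sign. *Nfkb2*, the second NF-kB precursor, fell in IAIE cells from 307, 333 and 291 CPM to 197, 240.3 and 182 CPM and held 450.0, 494 and 418 CPM and then 369, 454 and 419 CPM in CD11c cells (interaction adjusted p = 0.473). Of 29 genes of the cyclic AMP machinery and CREB targets, 3 had a positive and 1 a negative interaction at an unadjusted p under 0.05, with a median of 0.05. *Il10*, an anti-inflammatory cytokine on that list, fell in IAIE cells from 49.6, 58.8 and 60.9 CPM to 28.9, 17.0 and 13.6 CPM (-1.52 ± 0.33, adjusted p = 0.00524), against -0.20 ± 0.36 in CD11c cells (interaction 1.32 ± 0.49, adjusted p = 0.397). Its CD11c libraries held 18.8, 9.35 and 7.72 CPM without and 11.3, 12.9 and 6.23 CPM with CGRP. Of 22 AP-1 and EGR genes, 5 and 2 were at an unadjusted p under 0.05 with a positive and a negative sign, among them *Egr1*, which fell in IAIE cells from 624, 503 and 419 CPM to 284, 281 and 254 CPM. Its CD11c libraries held 270.5, 200.4 and 187 CPM and then 266, 164 and 184 CPM, which overlapped (interaction 0.82 ± 0.26, adjusted p = 0.285).

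The myeloid receptors and other list members named here had positive interaction estimates, whereas the lectin *Cd209a*, described above, had a negative one. *Clec4n*, the fungal pattern receptor dectin-2, rose from 86.1, 116 and 85.0 CPM to 366, 457 and 516 CPM in CD11c cells and from 50.9, 68.2 and 53.3 CPM to 102, 128 and 156 CPM in IAIE cells (interaction 1.06 ± 0.26, adjusted p = 0.13, 0.00579 with the explant block and 0.0404 with the replicate block). The anaphylatoxin receptor *C3ar1* (0.63 ± 0.16, adjusted p = 0.147) rose in CD11c cells, and *C5ar1* (0.55 ± 0.19, 0.367) fell in IAIE cells. *Ass1*, which makes argininosuccinate, rose in both subsets and had an interaction of 0.99 ± 0.26 (adjusted p = 0.156). *Nr4a3*, an orphan nuclear receptor induced by cyclic AMP, had 0.69 ± 0.20 (adjusted p = 0.245, 0.0433 with the explant block and 0.101 with the replicate block).

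How far equal responses could be shown depended on level. For the 6198 genes with at least 10 CPM in each group the median SE of the interaction was 0.29, and for 3959 of them (63.9%) the 95% interval lay within 1 log2 unit of 0 on both sides. Of these 6198, 99 (1.6%) had an estimate of at least 1 in size. For the other 5729 genes the median SE was 0.88 and 0.838% of intervals lay within that range. Of 617 genes past the threshold with the same sign in both subsets, none passed for the interaction in edgeR, 57 had an unadjusted p under 0.05, and 396 (64.2%) had an interval within 1 log2 unit. Of the 670 genes past the threshold in CD11c cells alone, 8 passed for the interaction and 218 had an interval within 1 log2 unit. Of the 471 in IAIE cells alone, 2 passed and 204 had such an interval. Both CGRP effects and the interaction rest on the same libraries, so these counts describe the fit. The counts of intervals rest on the SE computed from the F statistic and are approximate.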

How the data were processed

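Per the labels and the study's methods, RNA of sorted synovial macrophages was made into stranded total RNA libraries, reads were trimmed with Trim Galore, checked with FastQC, aligned to mm10 with HISAT2 and assigned with featureCounts. Versions, annotation and strand setting are not given in the sources used here. The authors deposited raw counts for 26699 gene symbols in each of 12 libraries, and those were used as deposited. A combined table held the same 12 libraries and 6 further columns that match no sample here, which were not used.

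Counts were fitted in edgeR 4.0.16 (R 4.3.3) by the quasi-likelihood test with TMM scaling and 1 mean per group, after filterByExpr (minimum count 10, minimum total 15) left 11927 genes, with Benjamini-Hochberg adjustment over them and a threshold of 0.05. The script was tested on simulated data. Library totals were 2127191 to 5649698, the common biological coefficient of variation was 0.256, and Spearman's rho within groups was 0.942 to 0.972. A floor of 3 counts covers counting error only. Named genes are those past the threshold, the 10 per direction of smallest p among genes of at least 10 CPM in each group, a fixed list of receptors, chemokines and response genes, and up to 2 per list. Members and lists were chosen with earlier results of these data known. The values of 1 list member are not reported here. Alternatives used DESeq2 1.42.0, limma 3.58.1 (voom) and sva 3.50.0, other scalings and filters, thinned counts, leaving out each library, and replicate blocks.

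Replicate numbers are in the titles, but no label says that a number marks a shared explant. Over 6198 genes, deviations of same-numbered CGRP libraries of the 2 subsets correlated at 0.279, 0.183 and 0.183, those of control libraries at 0.0921, 0.0542 and -0.0048. Same-numbered control and CGRP libraries correlated at 0.174, 0.106 and 0.00772 in CD11c cells and at 0.0653, -0.0116 and -0.0152 in IAIE cells. What a shared number marks was not tested.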

Additional observations from a re-analysis of the deposited data

Results flagged for a closer look

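Each of the 18 genes past the interaction threshold was picked out because the test of the difference itself separated the CGRP effects of the subsets. Among the genes of macrophages, the log2 interaction was -1.12 for *Slc6a6*, -1.95 for *Serpinb9* and 0.884 for *Nfkb1*. Among matrix and stromal genes it was 10.4 for *Thbs4*, 12.7 for *Col6a3*, 7.34 for *Col6a1*, 7.05 for *Col6a2*, 6.38 for *Col5a2*, 6.96 for *Dcn* and 10.3 for *Fmod*. It was 9.34 for *Prelp*, 12.5 for *Cilp*, 10 for *Mgp*, 3.05 for *Sparc*, 4.21 for *Serpinf1*, 6.15 for *Fstl1*, 3.46 for *Lamb2* and 4.49 for *Htra1*. In 6 of the 18 a group lay at or under the floor in every library, so the fitted size of those interactions is not a measured one. With 3 libraries a group, single outlying samples were not tested.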

How the results depend on the processing

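The 18 called genes kept the sign of their interaction in each alternative that gave them a value, and 5 of them passed in all 12 fits without a library. Counts of calls moved more, given here for all genes and then for genes of at least 10 CPM in each group, against 18 and 3. They were 171 and 69 with no filter, 97 and 38 in DESeq2, 38 and 13 with 1 surrogate variable, and 42 and 14 at an adjusted p of 0.1. Requiring 10 counts in every library left 5 calls of 7618 genes tested, limma-voom with quality weights left 2, and thinning to the lowest total gave 5 of the higher genes. With the replicate number as a block 36 and 14 passed, and with treatment and replicate number as an explant block 52 and 26, a pairing that the labels do not state. Leaving out each library gave 6 to 29 calls and 1 to 9 among the higher genes. Without both IAIE control replicate 2 and CD11c CGRP replicate 2, an alternative chosen after seeing the data, 21 passed. The cause of these shifts was not tested. Reversed signs were seen in 6 genes far from the threshold. *Cxcl5* was -0.10 and *Cxcl10* -0.12 in limma-voom, and *Arg1* was 0.18 with 1 surrogate variable. Over the fits without a library, or without both named above, *H2-Ab1* ran from -0.0206 to 0.15, *Calcrl* from -0.0782 to 0.33, *Il15* from -0.75 to 0.11, *Cxcl5* from -1.17 to 0.56, *Cxcl10* from -0.26 to 0.44 and *Arg1* from -2.58 to 0.69. For genes below 10 CPM in a group, the SE of the interaction computed from the F statistic had a median of 0.88.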
